A study of Mus musculus with 8 samples.

Results

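The collagen genes of the mouse encode the alpha chains of the collagens, and those described here are the 36 genes whose symbol has the form Col, number, a, number in the platform annotation and that were listed for this account. They were represented by 70 of the 45101 probe sets of the array and are 36 of its 18194 named genes. Another 6 collagen symbols of the annotation were outside the list and are not described. The rule used names only and no measured value, but earlier results of these data were known when the members were chosen. Expression was measured in total RNA labelled mouse brain, cerebral cortex, on 8 Affymetrix arrays, 1 per sample, in a series on how astroglia respond to the growth factor FGF2, which drives astrocytes to divide. There were 2 samples in each of 4 groups, given vehicle, FGF2 alone, FGF2 with U0126, an inhibitor of the MEK kinases that activate ERK, and FGF2 with SB202190, an inhibitor of the p38 kinases. Both inhibitor groups therefore also received FGF2, and neither inhibitor was given without it. The sources used here give no dose, time, strain or age, and do not say whether cultured cells or tissue gave the RNA. In 1 sample, the second with FGF2 and SB202190, the kind of treatment was labelled acclimatization in place of wait, and its group was left as labelled. The labels do not state that the 2 samples of a group had separate sources, so a p-value here reflects only how these samples vary, perhaps for technical reasons, and with 8 arrays the precision is limited by their number.

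Collagens are trimers of alpha chains wound into a triple helix. The fibril-forming collagens (types I, II, III, V and XI among them) assemble outside the cell into cross-linked fibrils, type IV forms the network of basement membranes, type VI forms beaded filaments, and the other classes attach to fibrils, cross the cell membrane or form short-chain networks. In the brain, fibrillar collagens are made mainly by fibroblasts of the meninges and of the vessel wall, while type IV collagen lies in the basement membrane between astrocyte endfeet and vessels. Chains of one trimer are often encoded by neighbouring genes. By the RefSeq gene order of build GRCm38.p6, 5 pairs of the 36 genes were direct neighbours: Col3a1 with Col5a2, Col4a3 with Col4a4, Col4a1 with Col4a2, Col4a5 with Col4a6, and Col6a1 with Col6a2.

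A set of 4 genes carries much of what follows, and their promoter windows are shown for that reason: Col1a2, whose signal was lowered by FGF2 under both inhibitors as well, Col11a1, the gene that U0126 raised most clearly over FGF2 alone, and the neighbours Col4a1 and Col4a2, which share 1 promoter region and of which Col4a2 alone was called with FGF2. Each window runs from 250 bases before the RefSeq start site to 50 bases after it, 300 bases in all, on the strand of the gene in GRCm38.p6. Col1a2 lies at chr6:4505368-4505667 on the plus strand, Col11a1 at chr3:114030290-114030589 on the plus strand, Col4a1 at chr8:11312777-11313076 on the minus strand and Col4a2 at chr8:11312555-11312854 on the plus strand. Capitals mark matches on either strand to the CCAAT box, the TATA box TATAAA, the Sp1 core GGGCGG or the AP-1 site TGANTCA, and no marked match overlapped another in these windows.
Col1a2: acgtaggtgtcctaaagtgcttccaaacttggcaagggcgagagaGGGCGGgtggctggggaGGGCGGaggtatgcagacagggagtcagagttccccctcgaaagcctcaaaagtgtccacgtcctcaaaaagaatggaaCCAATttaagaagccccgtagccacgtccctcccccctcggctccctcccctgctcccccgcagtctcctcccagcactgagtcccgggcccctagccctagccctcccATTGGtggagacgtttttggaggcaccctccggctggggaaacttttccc
Col11a1: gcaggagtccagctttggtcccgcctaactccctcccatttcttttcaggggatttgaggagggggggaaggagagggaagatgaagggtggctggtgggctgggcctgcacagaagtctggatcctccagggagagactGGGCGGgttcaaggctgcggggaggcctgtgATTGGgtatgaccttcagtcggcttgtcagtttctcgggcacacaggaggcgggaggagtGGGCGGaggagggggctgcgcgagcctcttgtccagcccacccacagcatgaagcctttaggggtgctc
Col4a1: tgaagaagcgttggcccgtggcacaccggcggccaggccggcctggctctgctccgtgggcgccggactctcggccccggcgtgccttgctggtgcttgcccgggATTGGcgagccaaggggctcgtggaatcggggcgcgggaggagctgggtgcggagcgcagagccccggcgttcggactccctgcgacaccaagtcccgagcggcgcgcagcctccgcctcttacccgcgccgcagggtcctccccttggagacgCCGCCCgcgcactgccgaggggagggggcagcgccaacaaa
Col4a2: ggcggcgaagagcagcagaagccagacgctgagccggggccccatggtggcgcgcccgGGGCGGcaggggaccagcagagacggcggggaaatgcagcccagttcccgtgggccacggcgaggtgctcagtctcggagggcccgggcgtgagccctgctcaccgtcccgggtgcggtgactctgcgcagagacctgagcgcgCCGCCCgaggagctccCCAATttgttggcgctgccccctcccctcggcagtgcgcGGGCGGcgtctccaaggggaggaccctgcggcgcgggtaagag

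The start sites of Col4a1 and Col4a2 lay 21 bases apart on opposite strands, and their windows shared 78 bases. Those of Col4a5 and Col4a6 lay 1343 bases apart on opposite strands, and their windows shared 0 bases. The set of full 300-base windows used here held 32 for 29 of the 36 genes, although all 36 were matched among the RefSeq genes. The CCAAT box, bound by nuclear factor Y, was found in 12 of the 32 windows (37.5%) and in 37.4% of all 32851 windows of the table. The Sp1 core was found in 20 of 32 (62.5%) and in 35.7% of all windows. The TATA box was found in 5 of 32 against 13.6%, and the AP-1 site in 1 of 32, that of Col6a1, against 7.81%. The match is to letters alone and says nothing of which factor was bound. The windows of genes on one locus are not independent of each other.

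Of the 36 genes 28 passed the filter on low values, a mean signal above the 40th percentile over the array, about 12.4. Signals below are the deposited values in arbitrary units, in the order replicate 1, replicate 2. Apart from sums over markers and differences between paired chains, they are compared only within a probe set. Each gene is given by its brightest probe set. Changes are differences in log2(signal + 1.77) after quantile normalization, with the SE and an adjusted p from limma over all 13174 genes that passed the filter. Genes with an adjusted p below 0.05 are described as called. Folds are on this same scale, which understates the change of dim genes. All 4 groups share 1 estimate of the spread.

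FGF2 lowered both chains of type I collagen, the type III chain, 2 of the 3 type VI chains and 3 type IV chains, among others. Against vehicle, 10 of the 28 genes were lower and 3 were higher, with 15 not called. Over all genes 37.9% were called, 18.9% higher and 19.0% lower, so the collagens held more calls in the lower direction than that background and fewer in the higher one. The median change of the 28 genes was -0.42, against -0.00 over all genes. With median centring of the arrays over all probe sets in place of quantile normalization, the median of all genes moved by 0.16 and all genes split into 4018 higher and 1479 lower, while the collagens split into 5 higher and 8 lower. The split of all genes with median centring is the background for every median-centred count of FGF2 against vehicle given below. In bulk RNA, fewer cells of a collagen-making type and less collagen RNA per cell cannot be told apart.

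**Figure D1:**
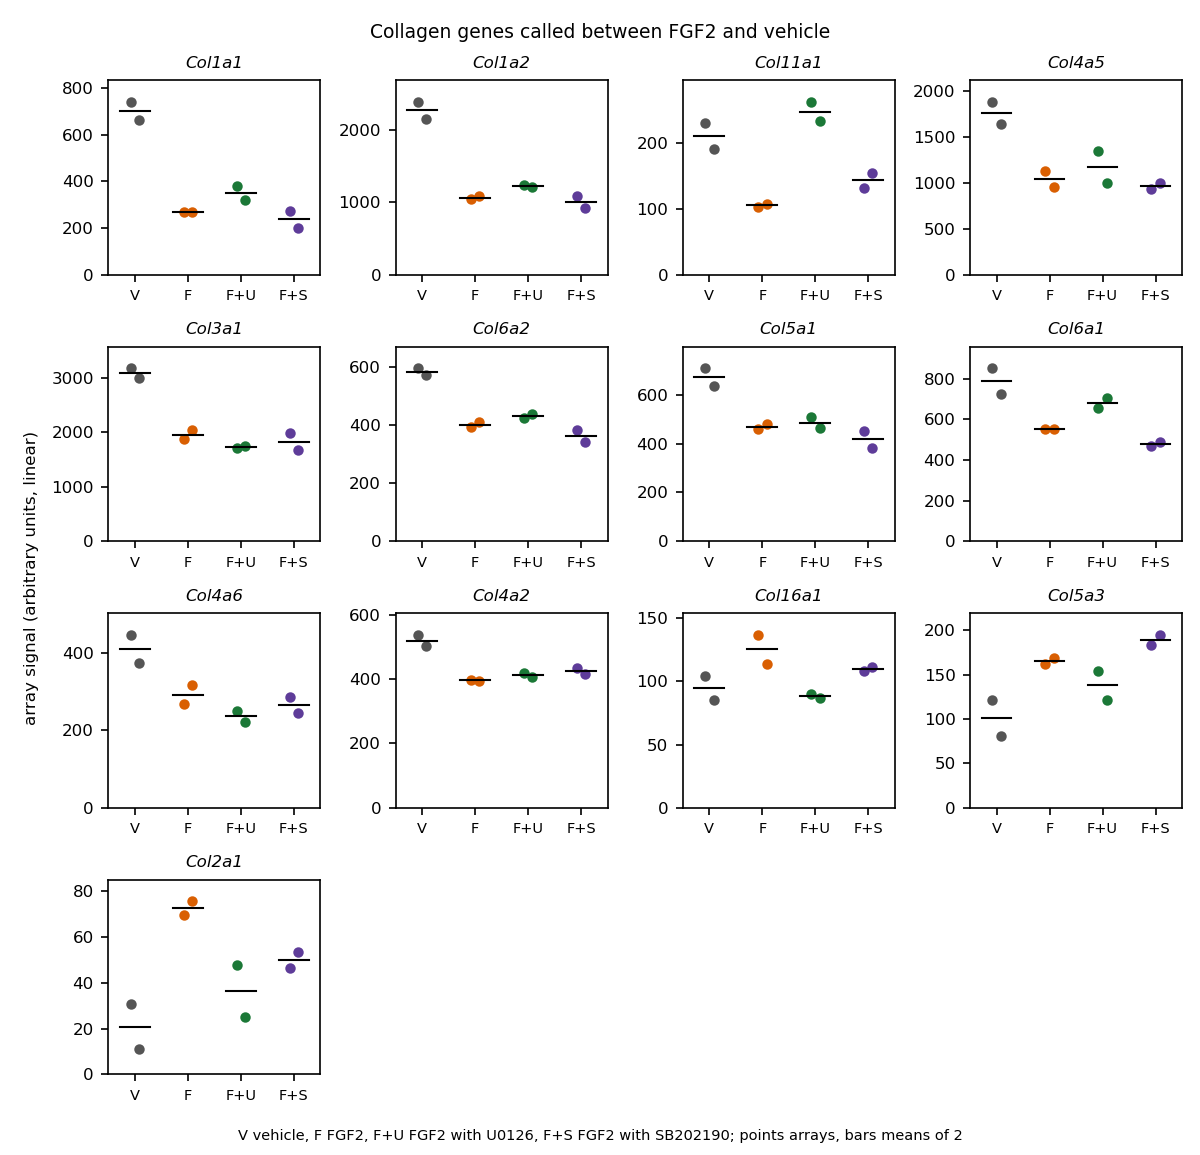
Signal of the 13 collagen genes called between FGF2 and vehicle, 1 panel per gene, ordered from the most lowered to the most raised. The vertical axis is the deposited signal on a linear scale from 0, points are the 2 arrays of a group and bars their mean. In each of the 10 lowered genes both vehicle arrays lie above both FGF2 arrays, and in Col16a1, Col5a3 and Col2a1 below them.

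Type I collagen, the main fibrillar collagen of connective tissue, fell most. Col1a1 had signals of 743 and 664 in vehicle, 271 and 268 with FGF2, 381 and 320.3 with FGF2 and U0126, and 273 and 200.5 with FGF2 and SB202190. All 6 arrays with FGF2 lay far below both vehicle arrays. The change with FGF2 was -1.40 ± 0.13 (SE), a 2.65-fold fall (adjusted p = 3.23e-06). Its second probe set gave -1.23 ± 0.11. Col1a2, the partner chain, had 2391 and 2149 in vehicle, 1037 and 1079.8 with FGF2, 1238 and 1211 with U0126 added, and 1088 and 921 with SB202190 added. It fell 2.21-fold (-1.15 ± 0.08, adjusted p = 2.36e-07), and again no array with FGF2 came near the vehicle arrays.

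Col3a1, the chain of type III collagen that copolymerises with type I in soft tissue, had 3179 and 2991 in vehicle and 1870.2 and 2047 with FGF2. It was lower by a change of -0.73 ± 0.08 (adjusted p = 8.5e-06). With the inhibitors its 4 arrays lay between 1679 and 1983, all far below vehicle, and 3 of them lay below both FGF2 arrays. Col5a1, a chain of the type V collagen that nucleates type I fibrils and limits their width, had 709.9 and 638 in vehicle against 459.5 and 480.3 with FGF2 (-0.55 ± 0.10, adjusted p = 0.000538). Its partner in the type V trimer, Col5a2, did not pass the test: it had 2153 and 2037 in vehicle and 1765 and 2064 with FGF2 (-0.20 ± 0.08, adjusted p = 0.0597), and its 2 groups overlapped. The sign of that Col5a2 change turned with median centring.

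Not all fibrillar chains fell. Col2a1, the type II chain best known from cartilage, had 30.6 and 11.2 in vehicle and 69.8 and 75.6 with FGF2. This was the largest change among the 28 genes, a 4.19-fold rise (2.07 ± 0.39, adjusted p = 0.000978) from a low level, and the vehicle arrays differed widely from each other. Col5a3, another type V chain, rose from 121 and 81.3 to 162 and 169 (0.78 ± 0.17, adjusted p = 0.00271). With the mean of its 2 probe sets the Col5a3 change was 0.18 and was not called. The second of these lay below the filter, with signals of 0.823 to 12.0 over all arrays. Col27a1 had 35.9 and 36.6 in vehicle and 14.8 and 35.9 with FGF2 and did not pass the test (-0.43 ± 0.39).

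Col11a1, a type XI chain that sits inside thin fibrils, had 230.3 and 191 in vehicle, 103 and 107 with FGF2, 263 and 233 with U0126 added, and 132 and 155 with SB202190 added. FGF2 lowered it 1.94-fold (-0.96 ± 0.13, adjusted p = 7.54e-05), while both U0126 arrays lay above both vehicle arrays. Its second probe set had 139 and 96.3 in vehicle, 106 and 87.4 with FGF2, 161 and 173 with U0126, and 107 and 110.2 with SB202190. On that probe set the fall with FGF2 was -0.21 ± 0.17 and was not called, with overlapping groups.

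In the basement membrane class 4 of 6 genes passed the filter, and 3 of these fell. Col4a5 had 1887 and 1645 in vehicle and 1128 and 961 with FGF2 (-0.80 ± 0.13, adjusted p = 0.000246). Col4a6, which is read from the opposite strand next to it, had 446 and 372 against 268 and 315 (-0.49 ± 0.12, adjusted p = 0.00654). The Col4a6 call was lost without vehicle replicate 1 or FGF2 replicate 1 and under 3 other settings. Col4a2, one of the chains of the ubiquitous type IV network, had 538 and 502 in vehicle and 398 and 395 with FGF2 (-0.41 ± 0.08, adjusted p = 0.00123). With median centring the Col4a2 change was -0.19 and was not called.

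Col4a1, the partner chain of Col4a2, had 1054 and 934 in vehicle, 1176 and 1210.2 with FGF2, 948 and 854 with U0126 added, and 1244 and 944 with SB202190 added. The change with FGF2 was 0.25 ± 0.11 and was not called (adjusted p = 0.0938), and it was called with median centring, at 0.46. Within each array the log2 signal of Col4a1 minus that of Col4a2 was 0.98 and 0.89 in vehicle and 1.57 and 1.61 with FGF2, 1.19 and 1.06 with U0126 added and 1.50 and 1.17 with SB202190 added. Both FGF2 arrays thus had a higher ratio than both vehicle arrays, although the 2 genes are transcribed from start sites 21 bases apart. The second Col4a1 probe set had 443 and 408 in vehicle and 374 and 399.6 with FGF2 (-0.15 ± 0.11), so on that probe set Col4a1 was not raised. The difference in response between the 2 genes was not tested.

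The same difference was taken for the other pairs of chains, with no test. In type I, the log2 signal of Col1a1 minus that of Col1a2 was -1.70 and -1.69 in vehicle and -1.92 and -1.99 with FGF2. In type VI, Col6a1 minus Col6a2 was 0.52 and 0.34 in vehicle and 0.50 and 0.43 with FGF2, within the same range. For Col5a1 minus Col5a2 the values were -1.62 and -1.68 in vehicle and -1.93 and -2.06 with FGF2, so the FGF2 arrays were the lower ones. Col4a5 minus Col4a6 was 2.13 and 2.14 in vehicle and 2.06 and 1.59 with FGF2. Both FGF2 arrays were lower, but they lay further from each other than the first of them lay from vehicle. The values were 2.44 and 2.14 with U0126 added and 1.69 and 2.01 with SB202190 added.

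The beaded filament genes had 2 of 3 members called, both lower. Col6a1 had 851 and 722 in vehicle and 554 and 553 with FGF2 (-0.53 ± 0.09, adjusted p = 0.00025). Col6a2, which lies beside it, had 594 and 572 against 391 and 409 (-0.57 ± 0.08, adjusted p = 0.000134). Col6a3, the longest of these chains, had 90.3 and 76.2 against 53.3 and 73.6 and did not pass the test (-0.32 ± 0.23, adjusted p = 0.308).

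Among the remaining classes 1 gene was called. Col16a1, a fibril-associated collagen, had 104 and 85.6 in vehicle and 137 and 114 with FGF2 (0.46 ± 0.16, adjusted p = 0.0337). Its call was lost under 5 settings, without vehicle replicate 2 and without FGF2 replicate 1 among them. Of the other fibril-associated genes above the filter, Col12a1 had 231 and 190.0 against 159.7 and 195, Col9a1 56.2 and 27.1 against 46.1 and 31.0, Col9a3 50.3 and 44.3 against 30.4 and 28.5, Col14a1 26.4 and 32.4 against 17.7 and 13.5, and Col20a1 32.3 and 19.4 against 20.9 and 22.1. In Col9a3 and Col14a1 both vehicle arrays were the higher ones, but neither change passed the test at this number of arrays (-0.49 ± 0.28 and -0.67 ± 0.42). Another Col9a3 probe set above the filter had 35.5 and 18.2 against 52.1 and 19.2, with overlapping groups. Another of Col12a1 had 123 and 105 against 134 and 131, with both FGF2 arrays the higher ones. Col8a1, a short-chain collagen of vessel walls, had 1816 and 1795 against 1719 and 1567 (-0.18 ± 0.08, adjusted p = 0.0853), and its sign turned with median centring. Col18a1, the basement membrane multiplexin that is the source of endostatin, had 449 and 447 against 531 and 528 (0.23 ± 0.09, adjusted p = 0.0674). It was called with no normalization and with median centring. Its second probe set went the other way, with 459.8 and 437 in vehicle and 424 and 403 with FGF2. Col8a2, Col15a1, Col23a1 and Col7a1 had signals between 15.1 and 63.6 on all arrays and changes of -0.48, 0.54, -0.63 and 0.13, none of them called.

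The 8 genes below the filter were Col4a3, Col4a4, Col9a2, Col10a1, Col11a2, Col13a1, Col17a1 and Col25a1. When no filter was applied and 18194 genes were tested, 3 of these 8 were called lower with FGF2. In that fit 2339 of the 18194 genes were called higher and 2309 lower. Col4a3 had 7.31 and 12.4 in vehicle and 0.889 and 0.976 with FGF2 (-1.87 ± 0.56, adjusted p = 0.0273). Col4a4, its head-to-head partner in the network of kidney and lung, had 36.9 and 15.4 against 4.68 and 3.39 (-1.98 ± 0.65, adjusted p = 0.0433). Col9a2 had 12.1 and 9.78 against 0.971 and 1.12 (-1.96 ± 0.57, adjusted p = 0.0245). These signals lie at the dim end of the array, no detection call was used, and a low signal is not shown to be expression. Col10a1 and Col17a1 stayed at or below 4.11 on every array, Col13a1 between 2.51 and 25.1, and Col25a1 between 4.38 and 44.2 with replicates far apart.

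U0126 reached few of these genes, and most clearly Col11a1. With FGF2 and U0126 against FGF2 alone, 2 of the 28 genes were higher and 4 were lower, beside 22.1% of all genes called, 11.6% higher and 10.5% lower. The 6 calls are a share close to that background, so their number is nothing particular to collagens. The median change of the 28 genes was -0.02, against 0.03 over all genes. Since the FGF2 arrays enter both this comparison and that with vehicle, a change one way in the first and the other way in the second is in part the same measurement. Leaving out FGF2 replicate 1 left 3 calls and leaving out FGF2 replicate 2 left 2.

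Col11a1 rose 2.30-fold over FGF2 alone (1.20 ± 0.13, adjusted p = 3.62e-05), and its second probe set rose as well (0.76 ± 0.17, adjusted p = 0.00985). Against vehicle, Col11a1 with FGF2 and U0126 differed by 0.24 ± 0.13 and was not called (adjusted p = 0.193, 95% interval -0.04 to 0.53). Its rise over FGF2 kept its call under all 20 alternative settings, with values from 0.98 to 1.28. Col6a1 had 654 and 706 with U0126 added, between the FGF2 and vehicle arrays, and was higher than with FGF2 alone by 0.29 ± 0.09 (adjusted p = 0.0277). Its call was lost under 4 settings, without FGF2 replicate 1, FGF2 replicate 2 or U0126 replicate 2 among them.

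The 4 genes that U0126 lowered against FGF2 were Col18a1, Col4a1, Col5a2 and Col16a1. Col18a1 had 407 and 359 with U0126 added against 531 and 528 with FGF2 (-0.47 ± 0.09, adjusted p = 0.00251). Its second probe set, one that can bind several transcripts, had 460.5 and 405 against 424 and 403, a change of 0.06 ± 0.09 with overlapping groups, and with the mean of both probe sets the Col18a1 call was lost. Col5a2 had 1520.1 and 1394 against 1765 and 2064 (-0.37 ± 0.08, adjusted p = 0.00423), and its second probe set was also lower (-0.49 ± 0.14, adjusted p = 0.0349). The Col5a2 call was lost without FGF2 replicate 2.

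Col4a1 with U0126 lay below both FGF2 arrays (-0.42 ± 0.11, adjusted p = 0.0147), a call lost without either FGF2 array or U0126 replicate 2, and its second probe set gave -0.13 ± 0.11. Col16a1 with U0126 had 90.0 and 87.1 against 137 and 114 (-0.49 ± 0.16, adjusted p = 0.0389), and its call was lost under 8 settings, among them leaving out any one array of the 3 groups with FGF2. Col1a1 and Col1a2, at 0.36 ± 0.13 and 0.21 ± 0.08, were higher than with FGF2 alone on both U0126 arrays but did not pass the test (adjusted p = 0.0757 and 0.0817). The second Col1a1 probe set had 134 and 139 with FGF2 and 200.4 and 222 with U0126 added and was called (0.60 ± 0.11, adjusted p = 0.00291). Both type I chains stayed below vehicle with U0126, by changes of -1.05 ± 0.13 and -0.93 ± 0.08.

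Below the filter, Col11a2, another type XI chain, was 22.0 and 24.0 with FGF2, 0.807 and 2.08 with U0126 added, 15.3 and 14.8 with SB202190 added, and 30.3 and 23.1 in vehicle. Both U0126 arrays stood far below the other 6. With no filter the change against FGF2 was -2.93 ± 0.50 (adjusted p = 0.00234), opposite in sign to that of Col11a1. Col4a4 was higher with U0126, at 24.1 and 28.2 (2.30 ± 0.65, adjusted p = 0.0354). Its other probe sets, also below the filter, had overlapping groups. They had 3.35 and 6.42 with FGF2 against 6.42 and 4.95 with U0126, and 6.56 and 13.7 against 17.9 and 3.57. On 1 probe set of Col9a1 that is not its brightest, signals fell from 30.9 and 19.2 with FGF2 to 9.17 and 4.79 with U0126 (-1.55 ± 0.41, adjusted p = 0.0204), while the brightest one did not differ (0.21 ± 0.36), so the 2 probe sets of Col9a1 disagree.

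**Figure D2:**
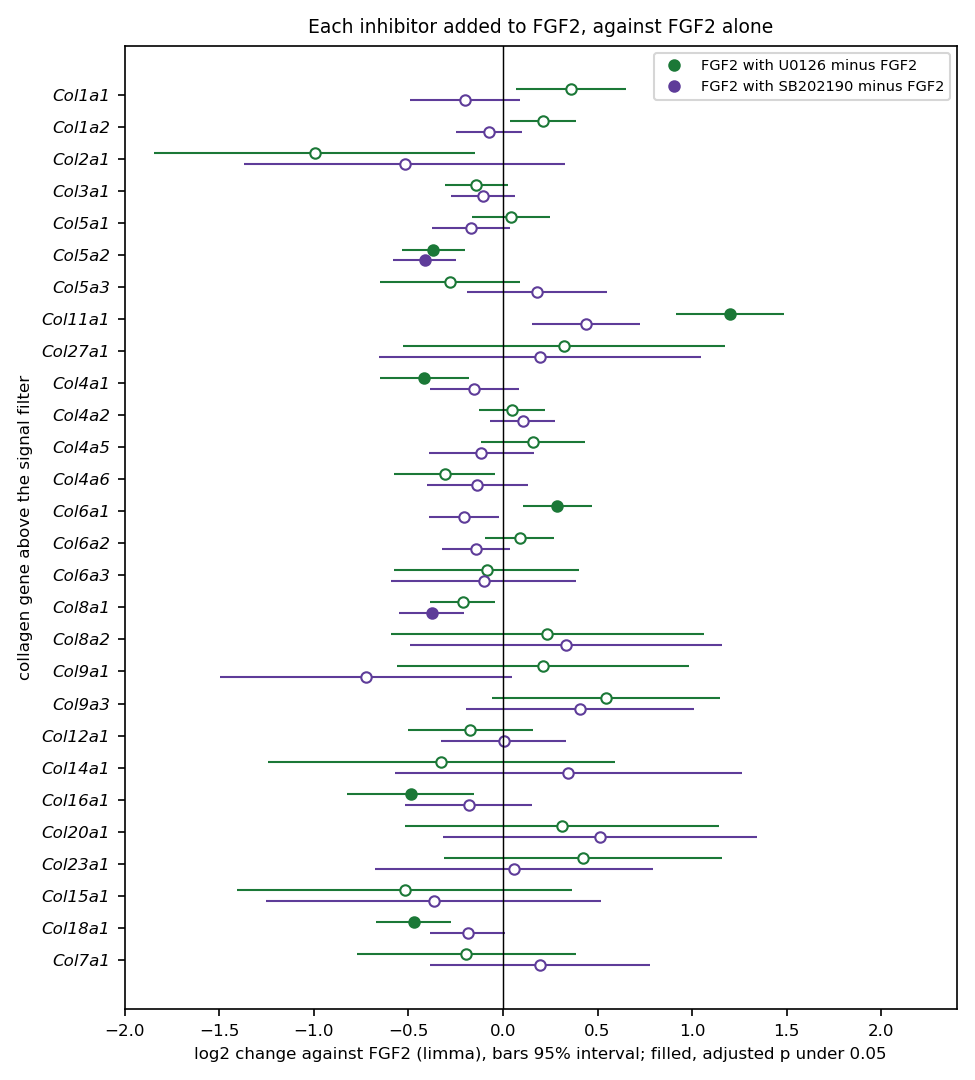
Log2 change of each of the 28 collagen genes with U0126 (green) and with SB202190 (purple), both given with FGF2, against FGF2 alone. Points are the estimates from limma, bars the 95% interval, and filled points passed an adjusted p of 0.05, with genes grouped by class from top to bottom. Col11a1 with U0126 lies farthest to the right at 1.20, and only Col5a2 is filled for both inhibitors.

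SB202190 moved 2 of the 28 genes against FGF2 alone, both lower, beside 3.02% of all genes called, 1.32% higher and 1.70% lower. Col8a1 had 1345 and 1187 with SB202190 added against 1719 and 1567 with FGF2 (-0.38 ± 0.08, adjusted p = 0.0227). Its other 2 probe sets fell more, from 758 and 768 to 521 and 504 (-0.56 ± 0.07, adjusted p = 0.00167) and from 177 and 189 to 90.7 and 85.1 (-1.04 ± 0.14, adjusted p = 0.00337), so all 3 probe sets of Col8a1 were called. Col5a2 had 1482 and 1362 against 1765 and 2064 (-0.41 ± 0.08, adjusted p = 0.0124), and its second probe set gave -0.38 ± 0.14, not called. Without FGF2 replicate 2 or SB202190 replicate 2 neither call remained, and without FGF2 replicate 1 the Col5a2 call remained alone.

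**Figure D3:**
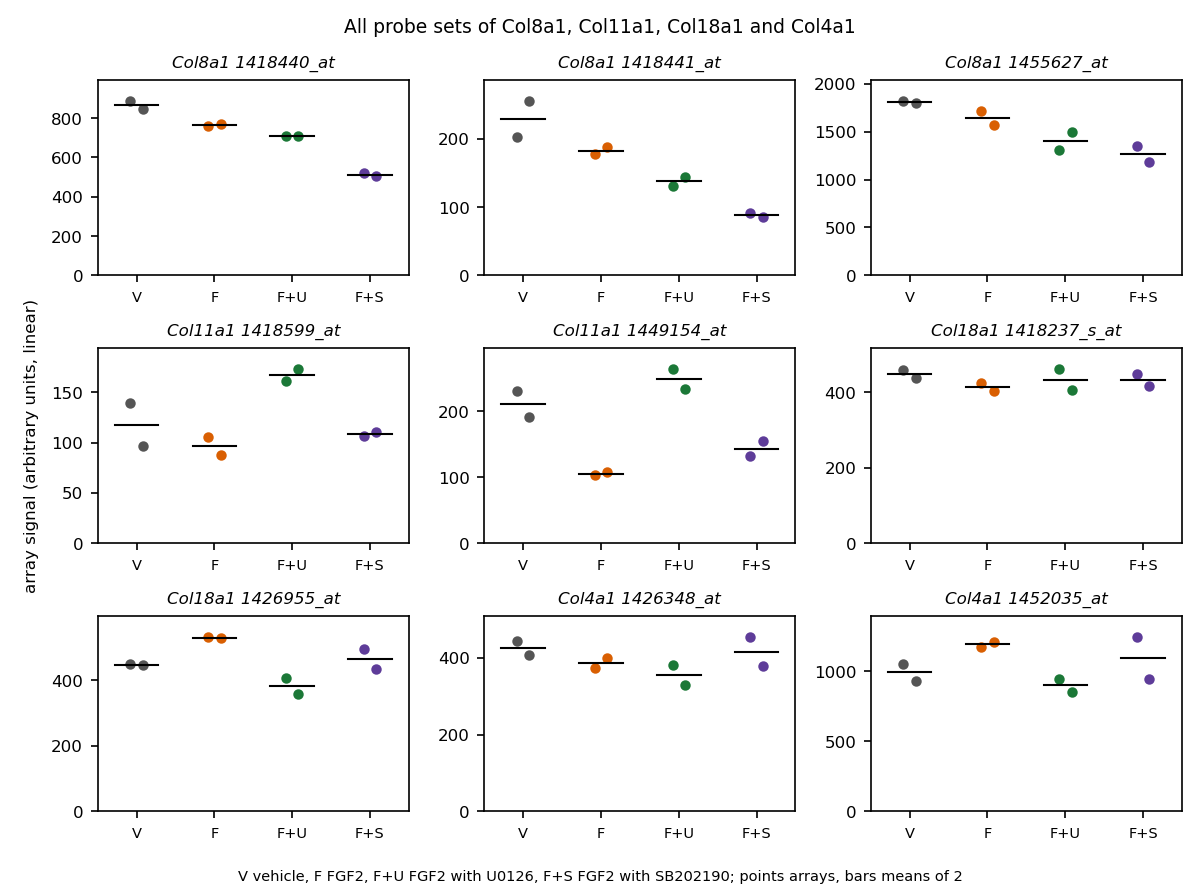
Signal of every probe set of Col8a1, Col11a1, Col18a1 and Col4a1, 1 panel per probe set, on a linear scale from 0. Points are the 2 arrays of a group and bars their mean. All 3 probe sets of Col8a1 are lowest with FGF2 and SB202190, both of Col11a1 are highest with FGF2 and U0126, and the 2 of Col18a1 and of Col4a1 differ in shape.

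Between the inhibitors, 4 of the 28 genes were higher with U0126 than with SB202190 and 1 was lower, beside 22.7% of all genes called, 12.4% higher and 10.3% lower. The difference is taken between the inhibitor arrays alone, while its SE rests on the spread of all 8 arrays. Col11a1 was higher with U0126 by 0.76 ± 0.13 (adjusted p = 0.0011), Col1a1 by 0.56 ± 0.13 (adjusted p = 0.00908), Col6a1 by 0.49 ± 0.09 (adjusted p = 0.00109) and Col1a2 by 0.29 ± 0.08 (adjusted p = 0.0229). Col18a1 was lower by -0.28 ± 0.09 (adjusted p = 0.04). The calls of Col11a1 and Col6a1 held under every alternative setting. That of Col1a1 was lost without U0126 replicate 1 or SB202190 replicate 2, that of Col1a2 also without U0126 replicate 2 and with the mean of its probe sets, where it turned to -0.054, and that of Col18a1 under 9 settings, among them leaving out vehicle replicate 2, FGF2 replicate 1, FGF2 replicate 2, U0126 replicate 2 or SB202190 replicate 1. Col5a2 differed between the inhibitors by 0.05 ± 0.08, with a 95% interval of -0.12 to 0.21, and Col8a1 by 0.16 ± 0.08, with an interval of -0.01 to 0.33.

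With either inhibitor present, about as many collagen genes were called lower than vehicle as with FGF2 alone. With FGF2 and U0126 against vehicle 1 of the 28 genes was higher and 11 were lower, beside 31.7% of all genes called, 16.7% higher and 15.0% lower. With FGF2 and SB202190 against vehicle 2 were higher and 12 were lower, beside 35.8% of all genes called, 18.0% higher and 17.8% lower. With median centring these splits were 3 higher and 6 lower, and 5 higher and 10 lower. All genes then split into 4030 higher and 1014 lower, and into 4059 higher and 1437 lower. The vehicle arrays enter these comparisons and that with FGF2 alone, and the values are set side by side for that reason. Col3a1 was at -0.73 with FGF2, -0.87 with U0126 added and -0.84 with SB202190 added. Col4a5 was at -0.80, -0.64 and -0.91, and Col6a2 at -0.57, -0.48 and -0.71. Col6a1, at -0.53, -0.25 and -0.74, was called lower in all of them, but with U0126 its call was lost under 13 settings, among them leaving out any one array other than vehicle replicate 2, and also with median centring, where its value was 0.002. Col5a2 and Col8a1, not called with FGF2 alone, were both called lower than vehicle with either inhibitor, Col5a2 at -0.57 ± 0.08 and -0.61 ± 0.08 and Col8a1 at -0.40 ± 0.08 and -0.56 ± 0.08. The Col8a1 call with U0126 was lost with median centring and without the intensity trend. That of Col6a2 with U0126 was lost with median centring and with the mean of its probe sets. The second Col6a2 probe set had 213 and 281 in vehicle and 233 and 288 with U0126, with overlapping groups. The Col4a5 call with U0126 was lost without the intensity trend.

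**Figure D4:**
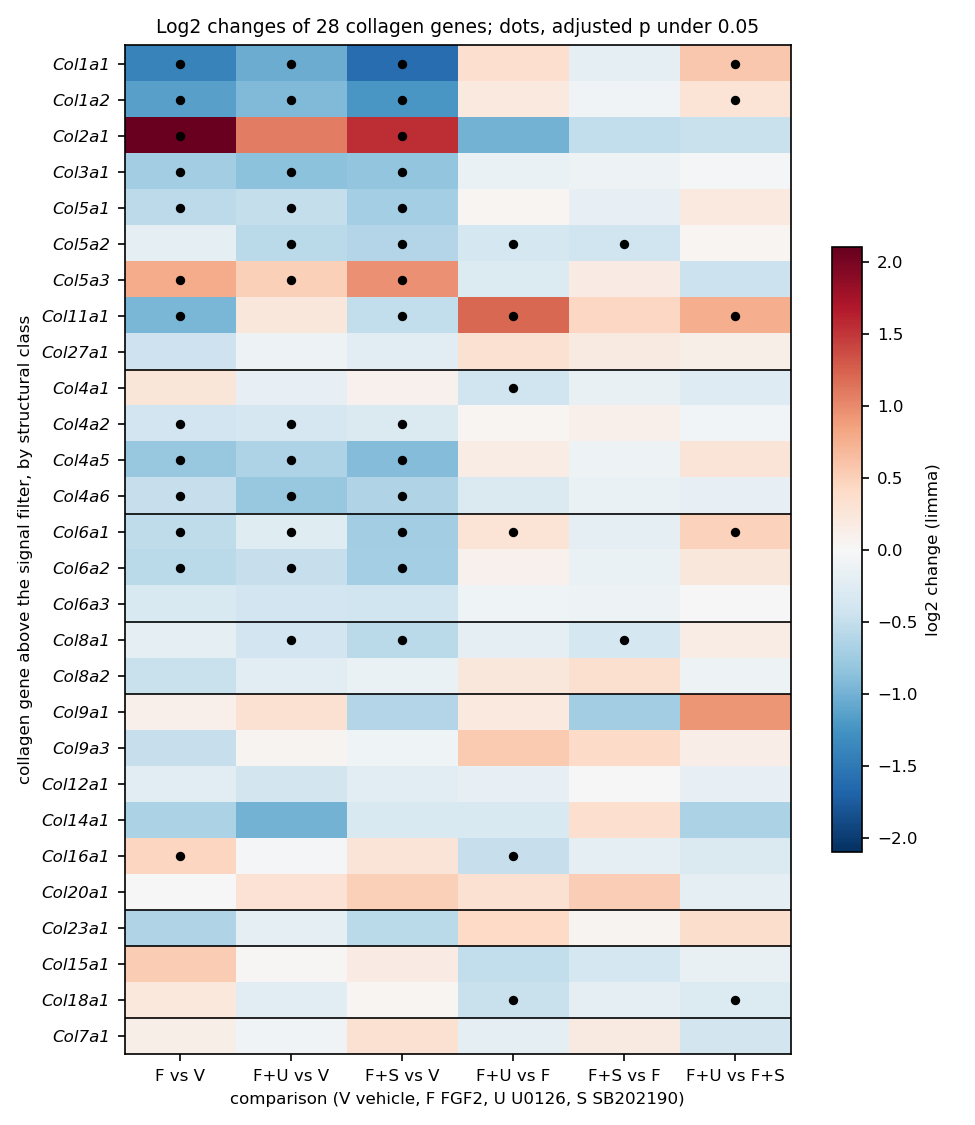
Log2 changes of the 28 collagen genes above the filter in all 6 comparisons, with lines between structural classes. Colour gives the change from limma (blue lower, red higher, in the first-named group) and dots mark an adjusted p under 0.05. The first 3 columns, each against vehicle, hold 12 to 14 dots each, and the 2 columns against FGF2 hold 6 and 2.

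Of the 70 probe sets 48 passed the filter, and 18 of the 36 genes had over 1 above it. Against vehicle, FGF2 raised 3 and lowered 15 of the 48 probe sets. In that fit of single probe sets 7663 were called over the array. Their share by direction was not computed, so the counts are not read as particular to collagens. In each of the 6 comparisons 0 genes had probe sets called in both directions.

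The enzymes that fold, hydroxylate, trim and cross-link collagen were called in both directions. Of 35 listed genes 28 were tested, and with FGF2 10 rose and 6 fell, beside 18.9% and 19.0% of all genes, with a median change of 0.16. Plod3, a lysyl hydroxylase, had 425 and 449 in vehicle and 703 and 634 with FGF2 (0.59 ± 0.08), and Pxdn, the peroxidase that makes the sulfilimine cross-link of type IV collagen, had 188 and 142 against 285 and 305 (0.87 ± 0.13). Loxl3, a lysyl oxidase, and P4hb, the beta subunit of prolyl 4-hydroxylase, also rose (0.63 ± 0.10 and 0.25 ± 0.06). Serpinh1, the collagen chaperone HSP47, rose slightly, from 2221 and 2066 to 2503 and 2642 (0.18 ± 0.06, adjusted p = 0.0211). Pcolce, which enhances removal of the C-propeptide from fibrillar procollagens, went the other way, with 1166 and 1195 in vehicle and 479.8 and 536 with FGF2 (-1.24 ± 0.08, adjusted p = 6.78e-08). Creb3l1, a transcription factor known to activate Col1a1 in bone, fell from 276 and 259.8 to 186 and 196 (-0.47 ± 0.10, adjusted p = 0.0023). With median centring the list split into 14 higher and 3 lower, and Creb3l1 was not called.

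Of the same enzymes, U0126 raised 3 and lowered 6 of the 28 against FGF2, beside 11.6% and 10.5% of all genes, and SB202190 raised 0 and lowered 6, beside 1.32% and 1.70%. Plod2, the hydroxylase of collagen telopeptide lysines, had 743 and 709 with FGF2, 509 and 518 with U0126 added and 515 and 487 with SB202190 added (-0.49 ± 0.08 and -0.53 ± 0.08, both called). Creb3l1 had 308 and 304 with U0126 (0.65 ± 0.10, adjusted p = 0.000525) and 139.9 and 141 with SB202190 (-0.43 ± 0.10, adjusted p = 0.037), so both U0126 arrays lay above vehicle and both SB202190 arrays below FGF2. P3h2, the prolyl 3-hydroxylase of basement membrane collagen, moved in the same directions against FGF2, with 188 and 174 under FGF2, 263 and 234 with U0126 (0.43 ± 0.13) and 96.0 and 117 with SB202190 (-0.76 ± 0.13). Serpinh1 was lower with SB202190 (-0.31 ± 0.06), as was Loxl3 (-0.55 ± 0.10). With median centring the SB202190 calls of Creb3l1 and Serpinh1 were lost. P4hb and Fkbp14, a peptidyl-prolyl isomerase of the collagen-folding pathway, were lower with U0126 (-0.48 ± 0.06 and -0.42 ± 0.07), while Pcolce was higher (0.39 ± 0.08).

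Of 12 listed receptors that bind or take up collagen 10 were tested, and with FGF2 3 rose and 4 fell (3 and 2 with median centring), beside 18.9% and 19.0% of all genes. Cd44, a hyaluronan receptor that also binds collagen, had 1526 and 1514 in vehicle and 3047 and 3198 with FGF2 (0.99 ± 0.06, adjusted p = 4.34e-08). Ddr1, the collagen-activated receptor tyrosine kinase, fell from 6218 and 6282 to 3741 and 2885 (-1.11 ± 0.11), and Mrc2, the receptor Endo180 that internalises collagen, from 125.7 and 95.1 to 45.8 and 35.2 (-1.33 ± 0.24). Against FGF2, U0126 raised Mrc2 (0.88 ± 0.24) and Ddr1 (0.41 ± 0.11), the latter not called when arrays were centred on the genes kept. It lowered Cd44 (-0.40 ± 0.06) and 2 other receptors. Of all genes U0126 raised 11.6% and lowered 10.5%. The integrin subunits that form the collagen receptor alpha1 beta1, Itga1 and Itgb1, were lower with either inhibitor than with FGF2 alone, Itga1 at -0.45 ± 0.12 with U0126 and -0.57 ± 0.12 with SB202190, and Itgb1 at -0.28 ± 0.06 and -0.23 ± 0.06. They were the 2 receptors of the list that SB202190 lowered, and 0 rose, beside 1.70% lower and 1.32% higher of all genes. The Itgb1 call with SB202190 was lost under each of the 3 other scalings, which were no normalization, median centring and centring on the genes kept.

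Of 19 listed partners of type IV collagen in the basement membrane 16 were tested, and with FGF2 1 rose and 5 fell, a share called close to the 37.9% of all genes. Nid2, one of the nidogens that link laminin to type IV collagen, fell from 519 and 447 to 182 and 179 (-1.41 ± 0.13, adjusted p = 1.76e-06), as did Lamb2 (-0.59 ± 0.12) and Sparc (-0.29 ± 0.05), a collagen-binding glycoprotein. Sparc was at 0.06 with median centring and was not called under any of the 3 other scalings, and with median centring 3 genes of this list were higher and 4 lower. Lamb1, the laminin beta-1 chain, rose from 269 and 229.8 to 418 and 438 (0.78 ± 0.09), and returned to 282 and 299 with U0126 (-0.57 ± 0.09). U0126 raised 0 and lowered 2 of these genes, Lamb1 and Nid1 (-0.68 ± 0.11), beside 11.6% and 10.5% of all genes. SB202190 raised 0 and lowered 1, Lama4 (-0.63 ± 0.15), beside 1.32% and 1.70%.

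Enzymes that degrade collagen had 8 of 13 members above the filter, of which 1 rose and 5 fell with FGF2, beside 18.9% and 19.0% of all genes. Mmp3, stromelysin-1, had 519.9 and 537 in vehicle, 936 and 1025 with FGF2, 527 and 559 with U0126 added and 1234 and 1338 with SB202190 added. It rose with FGF2 (0.86 ± 0.07), was lower with U0126 than with FGF2 alone (-0.85 ± 0.07) and higher with SB202190 (0.38 ± 0.07, adjusted p = 0.0148), so the 2 inhibitors moved it in opposite directions. Mmp2, a gelatinase that cleaves type IV collagen, fell from 705 and 667 to 346 and 356 (-0.995 ± 0.10), and Ctsb and Adam10 fell by less (-0.34 ± 0.04 and -0.36 ± 0.08). The direction of this list depended on the scaling: with median centring 2 were higher and 1 lower, Adam10 was not called and Ctsb was at 0.08, not called. Against FGF2, U0126 raised 0 and lowered 2 of these genes, Mmp3 and Ctsl (-0.18 ± 0.05), beside 11.6% and 10.5% of all genes. SB202190 raised 1 and lowered 2, Mmp14 (-0.35 ± 0.08) and Ctsl (-0.20 ± 0.05), beside 1.32% and 1.70%. The Mmp14 call was lost with median centring, and that of Ctsl under each of the 3 other scalings.

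Other matrix proteins that bind fibrils had 13 of 16 members tested, of which 1 rose and 7 fell with FGF2, beside the same shares of all genes. Matn2, a matrilin, fell from 445 and 454 to 169 and 156 (-1.45 ± 0.11), Fbln5, which organises elastic fibres, by -0.93 ± 0.11, and Postn, periostin, from 1298 and 1160.3 to 639 and 687 (-0.91 ± 0.08). Fn1, fibronectin, on which type I fibrils are assembled, rose from 2191 and 1993 to 3626 and 3692 (0.71 ± 0.08, adjusted p = 1.72e-05), against the direction of Col1a1 and Col1a2. Tgfbi, a protein that binds several collagens and integrins, did not pass the test with FGF2 (0.11 ± 0.11), but with median centring it was called, at 0.32. It had 485 and 476 with FGF2 and 83.7 and 90.5 with U0126 added (-2.44 ± 0.11, a 5.41-fold fall, adjusted p = 2.32e-08). With SB202190 added it had 203 and 235 (-1.13 ± 0.11, adjusted p = 0.000216). U0126 raised 2 and lowered 3 of the 13 against FGF2, beside 11.6% and 10.5% of all genes. Postn (0.41 ± 0.08) and Fbln5 (0.43 ± 0.11) were higher, and Tgfbi, Thbs2 (-0.42 ± 0.10) and Fn1 (-0.50 ± 0.08) lower. SB202190 raised 0 and lowered 1, beside 1.32% and 1.70%.

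The labelled tissue was checked against markers. All 14 astrocyte markers passed the filter, and the neuronal genes Snap25, Rbfox3 and Slc17a7, the endothelial Pecam1, the microglial Aif1 and the oligodendrocyte genes Mog and Mag were below it, while 6 of 10 neuronal, 4 of 10 microglial, 3 of 7 oligodendrocyte and 4 of 9 endothelial markers were above it. Among the latter were Stmn2, a neuronal gene, at 1338 to 1970, Cnp, of oligodendrocytes, at 1508 to 2483, Cd68, of microglia, at 113 to 306 and Kdr, of endothelium, at 18.0 to 97.1. Fibroblast and pericyte markers other than collagens were present, with 18 of 22 above the filter, Dcn and Acta2 among the bright ones. Their summed signal was 26925 and 26013 in vehicle, 20125 and 21980 with FGF2, 22525 and 22680 with U0126 added, and 19071 and 17262 with SB202190 added. Bright genes dominate such sums, which are not a measure of cell number. Acta2 had means of 7867 with FGF2 and 9304 with U0126 added, and Ogn 697 and 967. Lum went the other way, with 591 and 286, as did Aldh1a2, with 592 and 301. With FGF2 0 of the 18 rose and 9 fell (1 and 5 with median centring), beside 18.9% and 19.0% of all genes. With U0126 4 rose and 4 fell against FGF2, beside 11.6% and 10.5%. With SB202190 0 rose and 2 fell against FGF2, beside 1.32% and 1.70%. Dcn, decorin, fell with FGF2 (-0.86 ± 0.07), and Lum, lumican, did not pass the test (0.05 ± 0.10). The summed signal of the astrocyte markers was 30208 and 29682 in vehicle, 16739 and 16894 with FGF2, 20804 and 20289 with U0126 and 16096 and 15904 with SB202190, and all 14 fell with FGF2. Other lists moved too: of the ependymal and choroid plexus markers 0 rose and 5 of 6 fell with FGF2, and of the oligodendrocyte precursor markers 2 of 5 rose and 0 fell, Olig2 by 1.86 ± 0.08. The summed signal of the precursor markers was 2074 and 2081 in vehicle and 4232 and 4370 with FGF2, and that of the ependymal ones 6754 and 6967 against 4636 and 3715. The part of any of these lists in the changes of the collagens was not tested.

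Over the whole series, replicates correlated with r of 0.980 to 0.984 across the genes tested, and arrays of different groups with 0.947 to 0.981. A sign of RNA quality, the signal of the Actb control probe set at the 3' end over that at the 5' end, was 1.28 and 1.26 on the U0126 arrays and 1.31 to 1.41 on the other 6. Its part in the U0126 comparisons was not tested.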

How the data were processed

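Values deposited by the authors were linear intensity values of 45101 probe sets on 8 arrays. How the authors computed them is not given in the sources used here, and the 2%-trimmed mean of every deposited array was 150, which shows a common scaling. Of the probe sets 34958 carried 1 gene symbol, 932 several and 9211 none, and only the first kind named a gene. Values were taken to log2(value + 1.77), with the 10th percentile of all deposited values as pseudocount, and quantile normalized. Each gene was represented by its probe set of highest mean, and genes whose mean fell under the 40th percentile over the array were left out (13174 of 18194 genes kept). Log2 changes came from limma 3.58.1 (R 4.3.3) with an intensity trend, 1 two-sided fit over all 8 arrays (4 residual, 8.99 prior degrees of freedom), with Benjamini-Hochberg adjustment within each of 6 comparisons. The fit was tested on simulated data, with far fewer changed genes than were called in the measured data. Of changes of 1.25-fold 8.51% were called in the right direction, of 1.5-fold 51.06%, of 2-fold 79.55% and of 4-fold 93.02%. Of the 113 calls in the simulated data 10 were of unchanged genes. A small change that did not pass the test is therefore not shown to be absent. Figures were drawn with Python 3.11.15. Members, gene lists and tests were chosen with earlier results of these data known. Beside the collagens, up to 4 called genes per list and comparison with the smallest p are named, and the marker genes as examples. Promoter windows came from RefSeq (GRCm38.p6), matched by Entrez gene identifier, and coordinates of the array's own build were not used.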

Additional observations from a re-analysis of the deposited data

How the results depend on the processing

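Normalization, pseudocount, filter, choice of probe set, variance prior, samples in the fit and single arrays left out were each changed in turn, and a centring on the genes kept was added after seeing the data. With these, 9 of the 13 calls of FGF2 against vehicle held in every setting that tested the gene. Such calls were 1 of 6 for U0126 against FGF2 (Col11a1) and 0 of 2 for SB202190 against FGF2. Against vehicle they were 5 of 12 for U0126 and 10 of 14 for SB202190, and between the inhibitors 2 of 5. Of the 20 settings, Col2a1 was tested in 18 and Col6a2 in 19. Without the intensity trend, the calls were 2 in place of 6 for U0126 against FGF2, 0 in place of 2 for SB202190 against FGF2, and 2 in place of 5 between the inhibitors. Over all genes, calls in the same order were 1619 in place of 2916, 0 in place of 398, and 1735 in place of 2986. SB202190 against FGF2 had 1 call with median centring and 1 with the mean of the probe sets of a gene, beside 235 and 170 over all genes. Leaving out 1 array gave 11 to 15 calls for FGF2 against vehicle, 2 to 7 for U0126 and 0 to 2 for SB202190 against FGF2, 10 to 13 and 12 to 14 against vehicle, and 4 to 7 between the inhibitors. Among the collagen calls, changes of sign were 0.002 for Col6a1, U0126 against vehicle, with median centring (-0.25 otherwise), and -0.054 for Col1a2 between the inhibitors with the mean of its probe sets (0.29 otherwise), and their cause was not tested. Same-numbered arrays did not deviate together (r from -0.026 to 0.034 over 6 pairs of groups). With the replicate block the calls were 14, 7 and 2 for FGF2 against vehicle, U0126 against FGF2 and SB202190 against FGF2, 14 and 14 against vehicle, and 7 between the inhibitors. Over all genes, in the same order, they were 4969, 2908 and 414, 4162 and 4697, and 2992. Precision is lowest for dim genes: Col14a1, with signals of 11.7 to 32.4, had an SE of 0.42.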
